A study of Mus musculus with 6 samples.

Results

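Chromatin accessibility was described at 9 genes of the Eph receptor and ephrin family in crypts of the mouse intestine. The members were fixed by name, not by any measured value. They were the receptors Ephb2, Ephb3, Ephb4, Ephb6, Epha1 and Epha2 and the ligands Efnb1, Efnb2 and Efna1, 9 of 21938 protein-coding genes in the annotation. A peak was assigned to a gene when its summit, the position of highest signal, lay in the gene body or within 20 kb of either end. Merging the 6 peak lists wherever they overlapped by 1 base or more gave 71286 consensus elements, of which 98 lay at the 9 genes. A total of 60 elements lay at the 4 genes known for positioning cells in the crypt (Ephb2, Ephb3, Efnb1 and Efnb2) and 38 at the other 5.

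The data were ATAC-seq peak lists from nuclei of crypt cells, from 3 wild-type (WT) and 3 Arid3a conditional knockout (cKO) samples. ATAC-seq uses the Tn5 transposase to cut and tag open DNA, and a peak is a stretch with more tagged fragments than the local background. Both genotypes received tamoxifen on 3 consecutive days and crypts were collected 1 month after the first injection. In the cKO, per the study's methods, a tamoxifen-activated Cre under the Villin promoter (VillinCreERT2) acts on floxed Arid3a (Arid3a fl/fl), so the deletion is limited to cells in which that promoter is active, which in the intestine is the epithelium. The labels name the controls as Arid3a WT, and the age and sex of the animals were not given in the sources used here. For dissociation of the crypts the methods refer to a protocol that took them from the proximal jejunum. ARID3A is a transcription factor that binds A+T-rich DNA, and the comparison asked how its loss changed accessibility. The labels do not say that each library came from a separate animal, so the spread between samples may in part be technical.

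Eph receptors are the largest family of receptor tyrosine kinases, and their ephrin ligands are themselves anchored in the membrane of the neighbouring cell, so that a contact signals into both cells and most often makes them repel each other. In the intestinal crypt, EphB2 and EphB3 are targets of WNT signaling and are highest at the crypt base, whereas ephrin-B1 and ephrin-B2 are highest towards the villus. The opposing gradients keep Paneth cells at the base and dividing progenitors in order along the crypt axis.

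The 6 lists held 40492 to 58297 peaks on the autosomes, X and Y. The library background implied by the values of each list was 1.75 to 2.29 fragments per base. The lists of cKO 1 and cKO 3 stood apart: the shortest peak was 237 and 248 bp against 183 to 197 bp in the other 4 lists, and the median peak was 724 and 750 bp against 600 to 639 bp. The defining epithelial genes checked the tissue: 5 of 7 epithelial markers had a promoter peak in all 6 samples (Vil1, Cdh1, Cdx2, Hnf4a and Olfm4), whereas 0 of 4 leukocyte markers had one in any sample. Of 4 endothelial markers, 3 had none and Kdr had one in 2 samples. Of 4 mesenchymal markers, Pdgfra and Col1a1 had a promoter peak in all 6 samples and Col1a2 and Acta2 in none, and the part of mesenchymal cells in the results was not tested. Summed peaks around the epithelial markers were 69 to 82 in WT and 66 to 75 in cKO samples, around the leukocyte markers 7 to 8 and 5 to 9, around the endothelial markers 12 to 19 and 18 to 25, and around the mesenchymal markers 10 to 13 and 9 to 13. The same markers were at promoters in WT and cKO alike except Epcam (3 of 3 WT and 2 of 3 cKO) and Lgr5 (2 of 3 WT and 0 of 3 cKO). In bulk crypts, fewer cells of a type and less accessible chromatin per cell cannot be told apart.

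Sequences of 6 elements are shown because they hold, within 100 bp of the summit, the letters of a motif relevant to the study or to the crypt, and because 2 of them carry the results described further on. Capitals mark the matches. Letters were searched on both strands without mismatch, as TGACTCA or TGAGTCA for AP-1, CAAAGTCCA or CAAAGTTCA for HNF4, ATCAAA or ATTAAA for ARID3 and CTTTGAA or CTTTGAT for TCF, the factor that brings WNT signaling to DNA. The ARID3 letters ATCAAA lie inside the TCF letters when those are read on the other strand (ATCAAAG), so a single stretch can match both. All positions are GRCm38, and each sequence is read 5′ to 3′ on the strand of its gene. The first, 7.01 kb upstream of Ephb2 at chr4:136842896-136843096 on the minus strand, was chosen after its values were seen.

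Ephb2 upstream: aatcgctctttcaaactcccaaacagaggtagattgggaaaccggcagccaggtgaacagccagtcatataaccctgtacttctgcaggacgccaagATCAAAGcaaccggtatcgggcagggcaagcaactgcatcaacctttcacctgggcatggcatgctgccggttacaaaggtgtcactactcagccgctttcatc

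Here ATCAAAG starts 3 bases before the summit, spans it and matches TCF and ARID3 at once. The next lies 12.1 kb upstream of Efnb1 at chrX:99123920-99124120 on the plus strand, with TGAGTCA starting 17 bases before the summit and ATCAAA starting 52 bases after it.

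Efnb1 upstream: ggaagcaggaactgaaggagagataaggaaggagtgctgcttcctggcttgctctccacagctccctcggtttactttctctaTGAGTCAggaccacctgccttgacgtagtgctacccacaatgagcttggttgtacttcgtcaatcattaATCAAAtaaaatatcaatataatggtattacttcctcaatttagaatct

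Downstream of Efnb2 on the minus strand, the strongest element away from its promoter (chr8:8602818-8603018, 14.5 kb from the gene's end) held AP-1 letters, and the element called in WT samples alone (chr8:8605799-8605999, 11.5 kb) held TTTGAT, which is ATCAAA on the other strand.

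Efnb2 downstream, shared: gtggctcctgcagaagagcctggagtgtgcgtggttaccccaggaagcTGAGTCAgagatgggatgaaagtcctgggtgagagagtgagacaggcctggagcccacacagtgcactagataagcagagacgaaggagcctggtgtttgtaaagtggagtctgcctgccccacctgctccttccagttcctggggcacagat

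Efnb2 downstream, WT alone: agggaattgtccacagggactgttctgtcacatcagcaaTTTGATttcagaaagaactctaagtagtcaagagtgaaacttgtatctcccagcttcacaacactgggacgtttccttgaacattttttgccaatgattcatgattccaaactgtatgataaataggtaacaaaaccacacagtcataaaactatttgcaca

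At Epha2 on the plus strand, AP-1 letters lay 6 bases from the summit of the promoter element (chr4:141302007-141302207, in the first part of the gene, intronic at the summit), and the strongest upstream element (chr4:141287082-141287282, 14.1 kb before the gene) held AP-1 and TCF letters.

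Epha2 promoter: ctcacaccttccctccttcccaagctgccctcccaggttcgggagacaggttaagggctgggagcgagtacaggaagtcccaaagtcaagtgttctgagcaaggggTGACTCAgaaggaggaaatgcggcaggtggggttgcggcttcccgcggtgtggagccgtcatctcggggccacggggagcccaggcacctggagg

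Epha2 upstream: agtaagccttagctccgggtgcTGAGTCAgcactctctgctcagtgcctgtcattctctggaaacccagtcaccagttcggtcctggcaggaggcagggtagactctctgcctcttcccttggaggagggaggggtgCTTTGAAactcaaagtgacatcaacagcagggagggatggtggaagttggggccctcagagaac

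At the members' elements, none of the 6 motifs had a share whose 95% interval excluded that of all elements. ARID3 letters lay within 100 bp of the summit in 10 of 98 elements, 10.2% (95% Wilson interval 5.64% to 17.8%), against 16.1% of all 71286 elements. TCF letters were in 5 of 98, 5.1% (2.2% to 11.4%) against 8.04%, and AP-1 letters in 6 of 98, 6.12% (2.84% to 12.7%) against 8.09%. HNF4 letters were in 3 of 98, 3.06% (1.05% to 8.62%) against 2.51%. CDX letters (TTTATTG or TTTATGG) were in 7.14% (3.5% to 14.0%) against 8.48%, and GATA letters (AGATAA or TGATAA) in 23.5% (16.2% to 32.8%) against 20.5%. By group, ARID3 letters were in 7 of 60 elements of the crypt positioning genes and 3 of 38 of the other members, and TCF letters in 3 of 60 and 2 of 38. The intervals cover counting error only. The members' elements away from promoters had an A+T content of 46.8% ± 6.52 (SD, n = 84 elements) around the summit against 50.1% ± 7.88 for all non-promoter elements (n = 55951).

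All 9 genes had a promoter peak in 3 of 3 WT and 3 of 3 cKO samples, beside 44.6% of protein-coding genes with one in all 6 samples. A promoter peak was one with its summit between 1000 bp upstream and 100 bp downstream of an annotated start. The same was true of 3 of the 13 other genes of the family. Their promoters were open in all 6 samples at Ephb1, Epha7 and Epha8, in 3 to 5 samples at Epha3 (5), Epha5 (4), Efna3 (4), Epha4 (3) and Efna5 (3), and in 0 at Epha6, Epha10, Efna2, Efna4 and Efnb3. Of 12 genes that act downstream of the receptors or cleave the ligands, such as the exchange factors Ngef, Vav2 and Tiam1 and the protease Adam10, 10 had a promoter peak in all 6 samples. Nck2 (2 samples) and Sdcbp (3 samples) were the exceptions. The windows of Efna3 and Efna1 on chromosome 3 overlap, so their elements are partly the same.

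The promoter windows of the 9 members were rich in C and G. Their A+T content was 22.4% (Epha1) to 39.3% (Efna1), and they held 9 (Epha2) to 24 (Ephb6) CG dinucleotides within 100 bp of the summit, beside a median of 18 in the 12154 promoter elements called in all 6 samples. The sequences just upstream of the starts of Ephb2 and Ephb3, the receptors of the crypt base, are shown with each CG in capitals. They lie at chr4:136835989-136836188 on the minus strand and at chr16:21204555-21204754 on the plus strand, match the promoters given by RefSeq over all 200 bases, and hold 16 and 11 CG.

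Ephb2 promoter: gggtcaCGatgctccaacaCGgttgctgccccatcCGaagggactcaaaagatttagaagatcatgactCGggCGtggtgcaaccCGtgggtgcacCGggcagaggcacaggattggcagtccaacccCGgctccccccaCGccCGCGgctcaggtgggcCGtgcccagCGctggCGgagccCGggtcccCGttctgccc

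Ephb3 promoter: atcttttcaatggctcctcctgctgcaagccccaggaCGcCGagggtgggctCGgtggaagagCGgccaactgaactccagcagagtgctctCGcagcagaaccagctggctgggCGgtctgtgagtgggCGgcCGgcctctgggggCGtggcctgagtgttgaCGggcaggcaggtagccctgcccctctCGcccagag

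Ephb2 (ENSMUSG00000028664.14, chr4:136647539-136835988, minus strand) is the largest of the 9 genes at 188 kb and had the most elements, 29. All 6 lists shared 9 of them, and 22 lay in introns. The WT samples had 13, 21 and 23 peaks here, while the cKO samples had 21, 20 and 20, a mean of 19.0 ± 5.29 in WT and 20.3 ± 0.577 in cKO (SD, n = 3). WT 1, the shortest list, was the lowest and the groups overlapped. Ephb3 (ENSMUSG00000005958.15, chr16:21204755-21223305, plus strand) had 4, 7 and 6 peaks in WT and 7, 5 and 5 in cKO samples. The ligand Efnb1 (ENSMUSG00000031217.8, chrX:99136130-99148991, plus strand) had 11, 9 and 9 in WT and 9, 10 and 9 in cKO samples. Elements were dense around this X-linked gene: 22.7 per 100 kb, at the 99.6th percentile of protein-coding genes. The ligand Efnb2 (ENSMUSG00000001300.16, chr8:8617434-8661242, minus strand) had 4, 7 and 8 in WT and 8, 6 and 4 in cKO samples. None of these 4 genes had a count that set the genotypes apart.

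**Figure D1:**
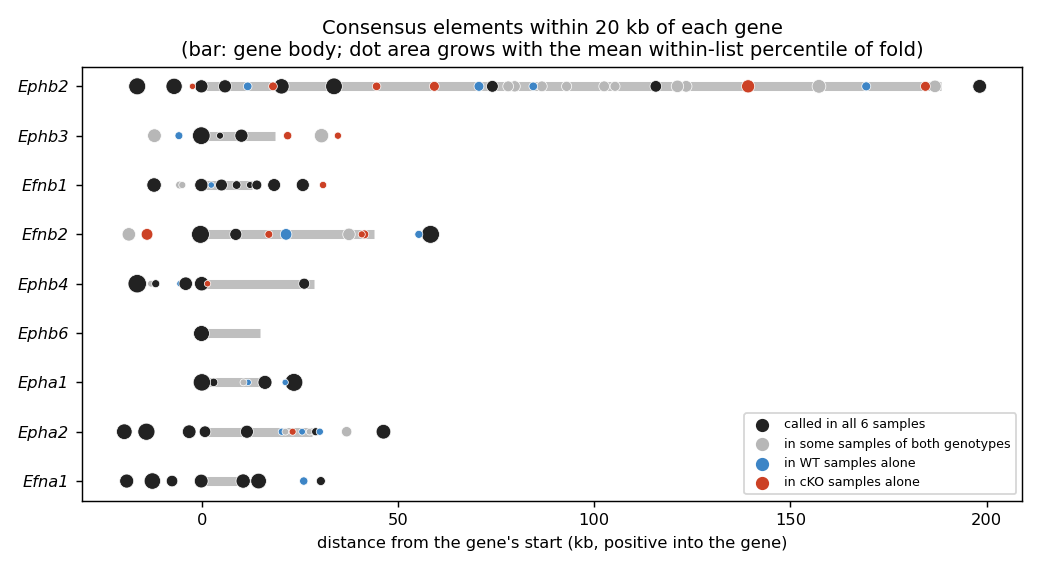
Each dot is a consensus element at its distance in kb from the start of the gene, the bars are gene bodies and the dot area grows with the element's mean within-list percentile of fold. Ephb2 has 29 elements, Ephb6 a single one at its start, and the elements called in 1 genotype alone are coloured, with dots ranging from those of weak peaks to that of the cKO element of Ephb2, about as large as the Ephb2 promoter's.

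Among the other receptors, Ephb4 (ENSMUSG00000029710.15, chr5:137350109-137378669, plus strand), known for its part in blood vessels, had 7, 8 and 10 peaks in WT and 7, 7 and 8 in cKO samples. Ephb6 (ENSMUSG00000029869.7, chr6:41605482-41620509, plus strand), a member without kinase activity, had 1 element in all, its promoter, which some lists split into 2 peaks. Epha1 (ENSMUSG00000029859.6, chr6:42358487-42373268, minus strand) had 4, 6 and 6 peaks in WT and 4, 5 and 5 in cKO samples. Epha2 (ENSMUSG00000006445.3, chr4:141301240-141329384, plus strand), a receptor of epithelial cell contacts, had 10, 11 and 10 in WT and 10, 9 and 8 in cKO samples and lay at the 99th percentile for density (99.03). Efna1 (ENSMUSG00000027954.9, chr3:89271733-89281142, minus strand), a ligand of the EphA receptors, had 7, 8 and 7 in WT and 6, 8 and 6 in cKO samples. Its window holds the promoters of the neighbours Dpm3 and Slc50a1, and those of Ephb4 and Epha1 hold the promoters of Slc12a9 and Zyx.

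Summed over the 9 genes, WT samples had 62, 78 and 80 peaks and cKO samples 73, 72 and 66. The means were 73.3 ± 9.87 and 70.3 ± 3.79 (SD, n = 3), a difference of −3.0 peaks, within the spread of the WT samples. It was −8.67 without WT 1, the shortest list, 0.33 without WT 3, 1.0 with −log10 q of at least 5 and −7.67 with lists of equal length. Per 1000 peaks of the list the sums were 1.53, 1.54 and 1.45 in WT and 1.25, 1.55 and 1.28 in cKO samples, lowest in cKO 1 and cKO 3. For single genes, the exact two-sided permutation test over the 6 samples gave p between 0.3 (Epha2) and 1 (Ephb2, Ephb3, Efnb1, Efnb2 and Ephb6), where the smallest p that 3 against 3 allows is 0.1. None of the 9 differences was detectable at this number of samples.

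**Figure D2:**
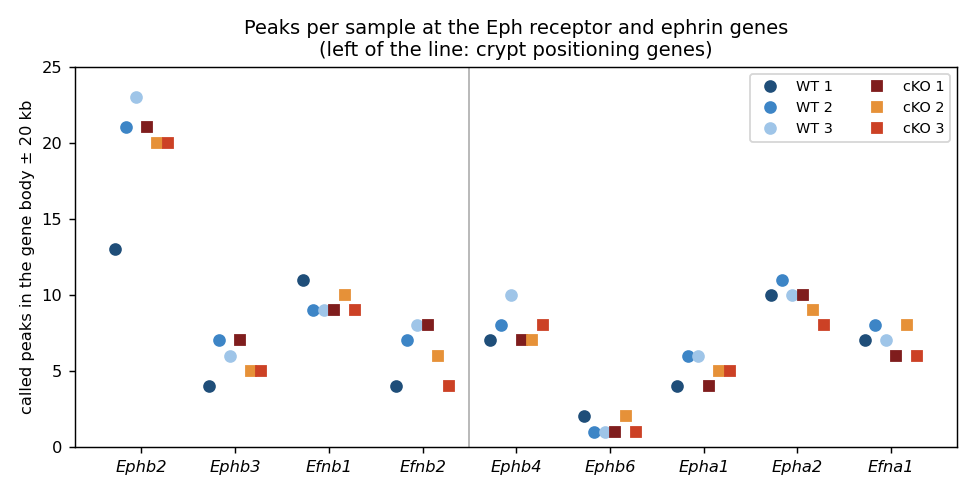
Points are the number of called peaks per sample in the gene body plus 20 kb either side, circles for WT and squares for cKO. The genotypes overlap at each gene, and WT 1 is lowest at Ephb2 with 13 peaks against 20 to 23 in the other 5 samples.

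Of the 98 elements, 47 were called in all 6 samples, 48%, beside 45.9% of all elements. The share was 23 of 60 at the crypt positioning genes and 24 of 38 at the other members. A single element had a peak in every WT list but in 0 of 3 cKO lists, 1.02% of 98, beside 0.111% of all elements. It lay 11.5 kb downstream of Efnb2 and was the one shown above with ARID3 letters. Its fold was 3.55, 3.13 and 2.56 in WT 1, 2 and 3, within-list percentiles of 14.9, 4.51 and 1.55, so it was among the weaker peaks of each list. The fragments at its summit implied by the fold and p columns were 31 (95% Poisson interval 21.1 to 44.0), 42 (30.3 to 56.8) and 38 (26.9 to 52.2). No member element had a peak in every cKO list but in 0 of 3 WT lists, beside 0.464% of all elements. The count of 1 rested on the lists' lower end: it was 0 when peaks with −log10 q under 5 were left out and 0 when the lists were shortened to equal length.

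Elements in exactly 2 WT samples and no cKO sample numbered 5 of 98, 5.1% beside 1.14% of all elements. All 5 were weak. One lay 5.78 kb upstream of Ephb3, at percentiles of 6.05 and 6.67 in WT 1 and WT 2. The second lay in an intron of Ephb2 70.7 kb from the start, at 25.8 and 6.18 in WT 2 and WT 3. At Epha2, an intronic element was at 1.5 and 1.38 in WT 1 and WT 3 and an element 2.02 kb downstream at 5.55 and 1.17 in WT 1 and WT 2. The last lay 16.6 kb downstream of Efna1, at 11.9 and 4.84 in WT 2 and WT 3. In the other direction, 1 of 98 elements (1.02%) was called in exactly 2 cKO samples and no WT sample, beside 2.87% of all elements. It was an intronic element of Ephb2 139 kb from the start, at 42.3 in cKO 1 and 32.2 in cKO 3, with 20 and 16 fragments at the summit. Neither of these libraries was cKO 2, the cKO list with a peak length like that of WT.

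Peak strength was compared by the fold of the summit over its local background. Because fold is relative to each library's own background, it was turned into a percentile within its list, where 100 is the strongest peak. The promoters spanned a wide range. Efnb2 (81.5 ± 2.97 in WT, SD, n = 3), Ephb3 (80.8 ± 2.43) and Epha1 (77.1 ± 6.41) were the strongest and did not differ beyond their spread. Ephb6 (63.7 ± 7.78) and Ephb4 (56.7 ± 3.4) followed, then Efna1 (49.7 ± 5.96), Ephb2 (47.5 ± 9.68) and Efnb1 (42.7 ± 10.9), which overlapped, and Epha2 (28.8 ± 1.91) was the weakest. The median of all shared coding promoters was higher, at 81.7 to 85.1 in WT and 80.9 to 83.6 in cKO lists. Efnb2 had a second annotated start 21.5 kb into the gene, with a peak in WT 3 alone.

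The promoter of Ephb2 was at the 58.7th, 41.9th and 41.9th percentile in WT and the 20.3th, 36.6th and 23.5th in cKO samples. It was the one of 9 member promoters at which every WT value lay above every cKO value, beside 9.29% of 11148 shared promoter elements of coding genes. The promoter of Ephb3 was at 81.3, 83.0 and 78.2 in WT and 70.9, 79.6 and 61.5 in cKO samples. Here cKO 1 and cKO 3 were lowest and cKO 2 lay within the WT range. The promoter of Efnb1 was at 32.2, 53.8 and 42.1 in WT and 22.1, 51.1 and 26.9 in cKO samples, and that of Efnb2 at 84.8, 79.1 and 80.6 and 71.5, 79.9 and 73.1. The order of the cKO samples was the same in both ligands.

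The promoter of Ephb4 was at 56.4, 60.3 and 53.5 in WT and 24.8, 62.1 and 25.4 in cKO samples, so that cKO 2 was the highest of all 6. The promoter of Efna1 was at 44.9, 56.4 and 47.9 in WT and 27.1, 53.6 and 21.6 in cKO samples, with cKO 2 inside the WT range. That of Epha1 was at 70.8, 83.6 and 76.8 in WT and 68.5, 74.3 and 62.7 in cKO samples, and the weak promoter of Epha2 at 27.1, 30.9 and 28.4 in WT and 24.5, 36.7 and 12.4 in cKO samples. Ephb6 differed from the rest: its promoter was at 54.9, 66.7 and 69.5 in WT and 59.8, 54.7 and 52.0 in cKO samples, with cKO 1 inside the WT range.

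**Figure D3:**
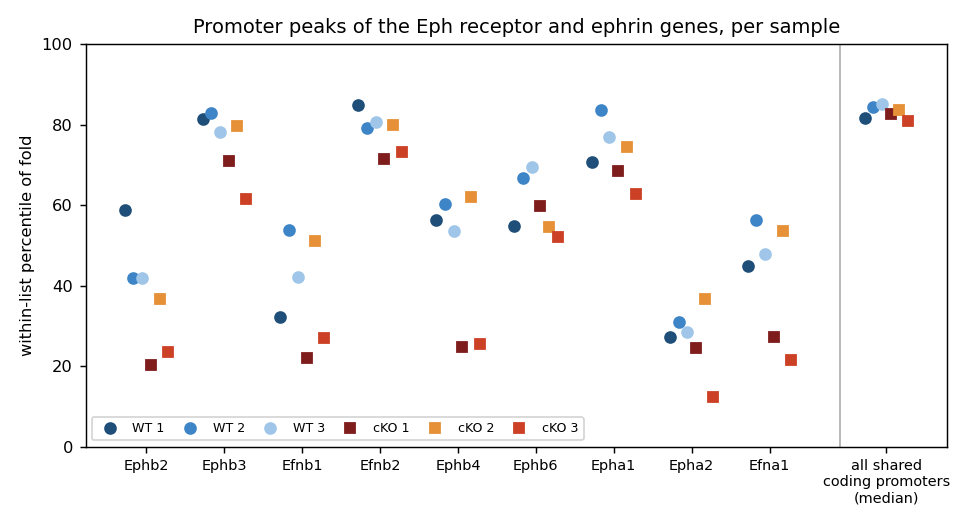
Within-list percentile of fold of each member's promoter peak, 1 point per sample, with the median of all shared promoters of coding genes at the right. In 8 of the 9 genes cKO 1 and cKO 3 are the 2 lowest samples, and cKO 2 lies among or near the WT samples.

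At 8 of 9 member promoters the values of cKO 1 and cKO 3 were thus below those of the other 4 samples, Ephb6 being the exception. The same was true of 30.4% of all 11148 shared promoters of coding genes, of 34.8% of the 4648 whose WT mean lay within the range of the members (28.8 to 81.5), and of 12.2% of shared non-promoter elements. Away from their own promoters, 13 of 38 shared member elements, 4 of the 38 being promoters of neighbouring genes, were lowest in those libraries. This count was made after the values were seen. It depended on the measure: when the implied number of fragments at the summit was ranked in place of fold, 2 of 9 member promoters (9.22% of all coding promoters) were lowest in those 2 libraries, and when −log10 q was ranked, 1 of 9 (3.02%). With fold ranked among the shared elements it was 8 of 9 (35.1%). With fold ranked within promoter or non-promoter elements it was 7 of 9 (22.1%).

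Fold sets the fragments at a summit against the local background, so both were examined at the promoters. At Ephb2 the summit held 65, 74 and 100 fragments in WT and 114, 56 and 93 in cKO samples, and at Ephb4 81, 139 and 170 in WT and 186, 112 and 147. These numbers are not scaled for depth. Those of cKO 1 and cKO 3 were within or above the WT range at both, as at the other 7 promoters. The local background at the Ephb2 promoter, in multiples of the library's commonest background, was 4.81, 6.88 and 8.78 in WT and 11.9, 6.02 and 9.65 in cKO samples. It was 6.3, 9.98 and 12.7 in WT and 18.4, 8.55 and 14.9 in cKO samples at Ephb4, and 9.12, 16.5 and 21.7 and 31.2, 13.8 and 22.8 at Efna1. Local background was highest in cKO 1 at 8 of the 9 promoters, Ephb6 being the exception with 1.3 to 1.52 in all 6 samples. At Ephb2, Ephb4 and Efna1 the order of the 6 samples was that of the median over all coding promoters: 3.04, 4.47 and 5.34 in WT and 7.21, 3.93 and 5.81 in cKO lists. The lower fold percentiles of cKO 1 and cKO 3 at 8 promoters thus stood beside a local background above that of cKO 2. Beside WT 3 the background of cKO 3 was slightly higher at Ephb2 (9.65 against 8.78) and Efna1 (22.8 against 21.7). At Epha2 it was lower (17.2 against 18.4). The percentiles of cKO 3 at these 3 promoters were 23.5, 21.6 and 12.4, against 41.9, 47.9 and 28.4 in WT 3. The part of the background in the lower percentiles was not tested.

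A fit across all 32748 shared elements was used to compare single elements between genotypes. Ranks of fold among the shared elements were turned to normal scores (1 unit is 1 SD over all elements) and cKO minus WT was tested with limma. After Benjamini-Hochberg adjustment, 0 of 47 member elements and 0.0% of all elements passed 0.05. At an unadjusted p under 0.05 there were 3 of 47, beside 2300 of all elements, 7.02%. The 5 member elements of smallest p were as follows. The first was a weak element in an intron of Ephb3, 4.69 kb from the start, at within-list percentiles of 5.78, 6.66 and 2.28 in WT and 0.749, 0.145 and 0.314 in cKO samples, which did not overlap. Its difference was −0.91 ± 0.26 units (SE, limma adjusted p = 0.638). The merged element runs from 21209375 to 21211388 on chromosome 16, so the peaks of different samples need not share a summit. By implied fragments it had 26, 65 and 38 in WT and 85, 32 and 59 in cKO samples, which overlapped, and the fitted difference in their rank turned to 0.0955.

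The second was the promoter of Dpm3, a neighbour 5.12 kb downstream of Efna1 that encodes a subunit of dolichol-phosphate mannose synthase, at 66.8, 68.7 and 65.8 in WT and 49.8, 48.9 and 44.5 in cKO samples. Here cKO 2 lay below the WT range, as it did at the promoters of Ephb2 and Ephb6 but not at those of the other 7 members, and the difference was −0.65 ± 0.24 units (limma adjusted p = 0.677). The third, 9.82 kb downstream of Ephb2, was higher in cKO: 16.1, 34.9 and 40.8 in WT and 54.7, 40.5 and 63.7 in cKO samples, a difference of 0.70 ± 0.25 units (limma adjusted p = 0.677) on 12 to 25 fragments per summit. The samples overlapped by WT 3 and cKO 2. The fourth was the promoter of Ephb2, −0.58 ± 0.28 units (limma adjusted p = 0.707), the other 8 promoters having differences from −0.55 (Ephb4) to −0.08 (Epha2). The fifth, in an intron of Ephb2 74.1 kb from the start, was 0.59 ± 0.29 units higher in cKO (limma adjusted p = 0.707), at 5.9, 37.2 and 18.1 in WT and 33.1, 49.9 and 23.5 in cKO samples. The Ephb2 window thus held elements that lay higher and a promoter that lay lower in cKO, none past the threshold. Of its 9 shared elements, 6 had a lower fitted rank in cKO.

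Every WT percentile lay above every cKO percentile at 7 of the 47 shared member elements (2304 of all shared elements, 7.04%), and the reverse at 0 (4.66%). Besides the Ephb3 intron, the Dpm3 promoter and the Ephb2 promoter, the 7 included the Zyx promoter in the Epha1 window, an intronic element of Efnb1 and 2 elements upstream of Ephb4. The stronger of the latter, 4.04 kb upstream and the strongest Ephb4 element away from promoters, was at 51.2, 46.7 and 42.2 in WT and 25.6, 39.5 and 32.6 in cKO samples. Its difference was −0.41 ± 0.26 units (limma adjusted p = 0.722).

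Most shared member elements had a lower fitted rank in cKO, though none singly passed the test: 39 of 47, 83%, with a median difference of −0.27 units, beside 53.6% and a median of −0.03 over all shared elements. The count was 9 of 9 at the members' own promoters (median −0.38) and 30 of 38 elsewhere (median −0.23). Over all shared elements it was 65.8% of promoters (median −0.12) and 46.5% of the others (median 0.03). The 38 include 4 promoters of neighbouring genes, so they are not a like set to those others. By gene the count was 7 of 7 at Efna1 and 4 of 4 at Epha1, including 2 and 1 promoters of neighbouring genes. It was 3 of 3 at Ephb3 and 6 of 7 at Epha2, and lowest at Ephb2, Efnb1 and Efnb2 with 6 of 9, 6 of 8 and 2 of 3. It was 37 of 47 without cKO 1, 34 without cKO 3, and 34 to 40 over all 6 single libraries left out. With both cKO 1 and cKO 3 left out, so that cKO 2 alone stood for the cKO and was assumed to vary like the WT samples, it was 26 of 47 with a median of −0.02 units (48.3% of all elements). With −log10 q ranked in place of fold it was 36 of 47, 76.6%, with a median of −0.11 units (49.7% of all elements), and 9 of 9 at the members' own promoters. With ranks of implied fragments it was 24 of 47 with a median of −0.02 units (49.5%). With fold ranked within promoter or non-promoter elements it was 40 of 47 with a median of −0.26 units (53.6%). Members share libraries and windows, and were not treated as replicates.

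**Figure D4:**
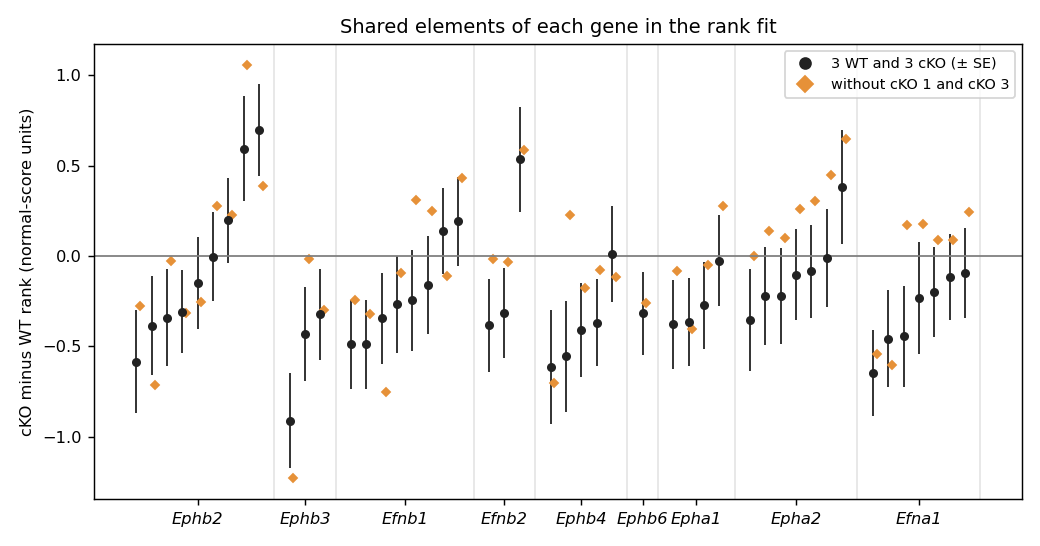
Fitted cKO minus WT rank of the 47 shared elements by gene, in normal-score units, with the SE of the fit. Of the black points (all 6 samples) 39 lie below 0, and of the orange diamonds (cKO 1 and cKO 3 left out) 26 do.

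Away from promoters, no strongest shared element of a gene passed the test, and the smallest limma adjusted p among them was 0.722, at the element upstream of Ephb4. At Ephb2 it lay 16.4 kb upstream, at 69.3, 65.4 and 77.3 in WT and 80.1, 62.1 and 59.7 in cKO samples, with a difference of −0.15 ± 0.25 units. The Ephb2 element with ATCAAAG, 7.01 kb upstream, was at 58.6, 68.7 and 71.9 in WT and 62.0, 55.9 and 58.5 in cKO samples, −0.31 ± 0.23 units (limma adjusted p = 0.739). The element shown downstream of Efnb2 was the strongest non-promoter element of the 9 genes, at 81.5, 86.8 and 77.3 in WT and 70.0, 80.9 and 70.1 in cKO samples (−0.38 ± 0.26 units, limma adjusted p = 0.729). The element upstream of Efnb1 with AP-1 and ARID3 letters was at 37.0, 46.8 and 48.9 in WT and 54.6, 39.1 and 55.4 in cKO samples, 0.14 ± 0.24 units. At Epha2 the upstream element with AP-1 and TCF letters was at 79.3, 72.7 and 67.6 in WT and 59.9, 75.5 and 68.3 in cKO samples. Except at the element upstream of Ephb4, WT and cKO samples overlapped at each of these. The remaining strongest elements, 10.2 kb into Ephb3 in a UTR, 1.35 kb downstream of Epha1 and 12.5 kb upstream of Efna1, had differences of −0.32 ± 0.25, −0.025 ± 0.25 and −0.20 ± 0.25 units.

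The crypt positioning genes were then set against the other members by the median within-list percentile of their peaks. It was 19.3, 32.8 and 33.8 for the positioning genes and 39.0, 33.9 and 37.6 for the others in WT 1, 2 and 3. In cKO 1, 2 and 3 it was 29.0, 29.2 and 27.8 against 28.7, 45.6 and 30.2. The positioning genes lay lower by 8.24 ± 10.04 percentile points in WT and by 6.15 ± 8.96 in cKO samples (SD, n = 3), so by fold the groups of genes did not differ beyond the spread between samples in either genotype. By −log10 q the positioning genes lay lower in all 6 samples. The differences were −20.1, −25.0 and −24.1 in WT and −37.3, −29.4 and −27.4 in cKO samples. The genotypes did not overlap on that scale, where 3 against 3 samples can give no exact permutation p under 0.1. All samples measure the same genes, so the spread between samples cannot show whether the 2 groups of genes differ. The spread between genes was not tested. These medians pool peaks, so genes with many peaks weigh more. Ephb2 supplied 13, 21 and 23 of the 32, 44 and 46 positioning peaks in WT samples. In cKO samples it supplied 21, 20 and 20 of the 45, 41 and 38. By −log10 q the neighbours' promoters were not left out. By fold the sign was not stable. Leaving out single libraries moved the difference between −11.8 (without WT 2) and −2.49 (without WT 1) in WT and between −9.35 (without cKO 1) and −1.04 (without cKO 2) in cKO samples, and windows of 50 kb gave 0.90 and 0.52. The other members' windows hold 4 promoters of neighbouring genes. With all promoter peaks left out, the positioning genes lay higher by a mean of 4.25 percentile points in WT and 3.28 in cKO samples. The samples' differences were −15.4, 10.2 and 17.9 in WT and 1.68, 6.64 and 1.52 in cKO. With the neighbours' promoters left out the mean differences were −0.37 and −0.38, from −16.1, 6.79 and 8.17 in WT and 2.49, −7.49 and 3.87 in cKO samples.

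**Figure D5:**
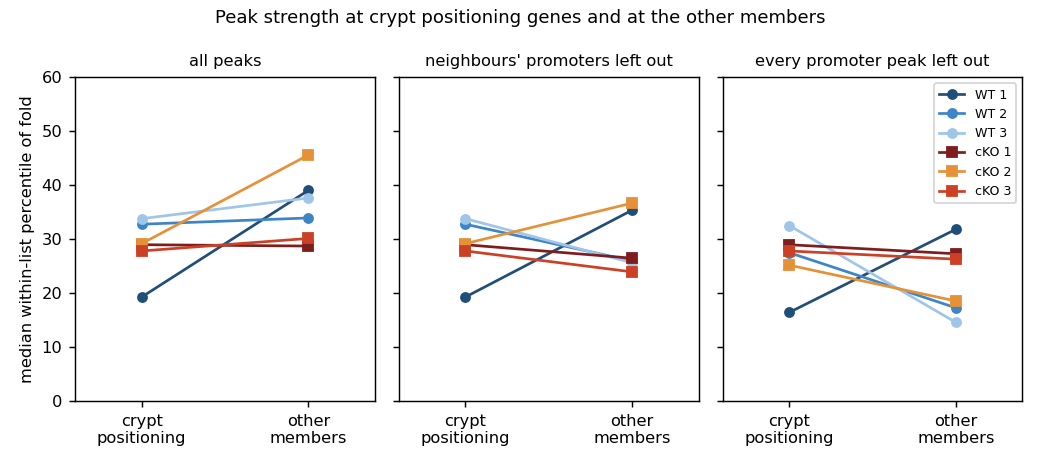
Median within-list percentile of fold of the peaks at the crypt positioning genes and at the other members, with 1 line per sample. The lines slope up in 5 of 6 samples with all peaks and down in 5 of 6 when every promoter peak is left out.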

How the data were processed

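ATAC-seq peak lists of 3 WT and 3 cKO crypt samples were used, with groups taken from the labels. Per the labels and the study's methods, the authors ran the nf-core/atacseq pipeline, which aligned reads to GRCm38, removed blacklisted regions and called narrow peaks with MACS2 in each sample, with no input control stated, so the background of each fold comes from the sample itself. The deposited lists hold a fold enrichment at the summit, −log10 p-values and q-values, a display score (10 times −log10 q, not used further) and the summit's offset. Reads and signal tracks were not used here. The members and lists were chosen with earlier results of these data known. Elements were lists merged at 1 base of overlap, and genes were those of GENCODE M21. Fragments at a summit were solved from the deposited fold and −log10 p, and 404 of 404 member peaks came out whole. Shared elements were ranked within each sample, turned to normal scores and fitted with limma 3.58.1 (R 4.3.3), without blocking, Benjamini-Hochberg over 32748 elements, threshold 0.05. Counts were compared with the exact permutation test over every assignment of the samples (Python 3.11.15). The fit was tested on simulated data. Named elements were each member's promoter, its strongest other shared element, the 5 of smallest p and those called in 2 or 3 samples of 1 genotype and 0 of the other. The alternatives are in the closing section.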

Additional observations from a re-analysis of the deposited data

How the results depend on the processing

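Depth and replicates limit these results: peak lists hold no value below the calling threshold, an element absent from a list may be just below it, and 3 samples per genotype allow no exact p under 0.1. The count of member elements in WT samples alone (1) was 0 with −log10 q of at least 5, with lists of equal length and with windows of 10 kb. It was 1 to 3 when single samples were left out, and that in cKO samples alone (0) was 0 to 1. Leaving out a sample loosens the rule, since fewer samples must agree, and the share of all elements under the looser rule is not given here. The mean difference between positioning and other members became 4.25 (WT) and 3.28 (cKO) percentile points without promoter peaks and 0.90 and 0.52 with windows of 50 kb. In both settings the WT samples differed in sign. With −log10 q in place of fold, and neighbours' promoters kept in, the difference was −23.0 and −31.4. It had the same sign in all 6 samples, and the spread between genes was not tested. The difference in summed peaks (−3.0) ran from −8.67 to 0.33 when single samples were left out. Over whole elements, the members' motif shares were 22.4% (AP-1), 42.9% (ARID3), 24.5% (TCF), 19.4% (CDX), 48.0% (GATA) and 5.1% (HNF4). They were higher than around the summits, since longer sequence was searched. The same search over all elements gave 18.5% (AP-1), 49.3% (ARID3), 25.8% (TCF), 22.9% (CDX), 48.9% (GATA) and 5.45% (HNF4). Each share over all elements lay within the Wilson interval of the members' share. The following alternatives were chosen after seeing the data: ranking implied fragments, ranking within promoters or non-promoters, and leaving out cKO 1 and cKO 3 or neighbours' promoters. Member promoters lowest in cKO 1 and cKO 3 (8 of 9) were 1 with −log10 q, 2 with implied fragments and 7 with ranks within promoters or non-promoters. Shared elements of lower rank in cKO (39 of 47) were 24 with implied fragments but 36 with −log10 q. They were 40 with ranks within promoters or non-promoters and 34 to 40 when single samples were left out. When summits had to lie within 250 bp of the element's median summit, 38 member elements were shared. Of these, 30 had a lower rank in cKO and 0 passed the threshold (smallest limma adjusted p 0.6803). Of 288 alternative fits of the 21 named shared elements, 261 kept their direction, 27 reversed and 0 passed the adjusted threshold. With implied fragments, differences turned at the Ephb3 intron (0.0955), the promoters of Efnb1 (0.022), Efnb2 (0.0487), Epha2 (0.0311) and Efna1 (0.0117), and the strongest other elements of Ephb4 (0.0369), Epha1 (0.0805), Epha2 (0.0115) and Efna1 (0.1732). Without cKO 1 and cKO 3 they turned at the promoters of Efnb1 (0.3112), Ephb4 (0.2276), Epha2 (0.3031) and Efna1 (0.1688) and the other elements of Efnb1 (−0.1122), Epha1 (0.2778), Epha2 (0.1356) and Efna1 (0.0882). With −log10 q the other elements of Epha1 (0.0881) and Efna1 (0.116) turned, and with −log10 q of at least 5 the Epha1 element (0.0925) and the Epha2 promoter (0.0751). Leaving out single samples moved those from −0.1834 to 0.0885 and from −0.2782 to 0.0716. The causes were not tested. Ranks over the shared elements correlated at 0.772, 0.907 and 0.902 between WT and cKO samples of the same replicate number. Between those of different number they correlated at 0.799 to 0.904. The main fit did not pair samples by number. With the replicate number as a block the limma fit called 0 member elements (smallest adjusted p 0.5149) and 39 of 47 were lower, with no call changed.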
